A study of Mus musculus with 6 samples.

Results

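The Tet family was read at every probe set whose platform annotation names Tet1, Tet2 or Tet3 as its single gene, which gave 3 of 18193 genes and 7 of the 45101 probe sets on the array: 4 for Tet1, 2 for Tet2 and 1 for Tet3. The arrays measured total RNA from LSK cells, a fraction of bone marrow defined by Sca-1 and Kit on the surface and the absence of lineage markers, which includes the haematopoietic stem cells. Cells came by flow sorting from 6-month-old Tet1 KO mice (3 arrays) and WT mice (3 arrays), and both groups share the strain that the labels spell CD57BL/6. The labels give neither the part of Tet1 that was deleted nor whether mice were pooled, so p-values reflect only how these samples differ from each other, which may be technical. Fewer cells of a type and less RNA per cell cannot be told apart in such sorted bulk samples.

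Tet proteins are dioxygenases that use iron, oxygen and 2-oxoglutarate to oxidise 5-methylcytosine in DNA to 5-hydroxymethylcytosine and further products, which can then be replaced by unmodified cytosine. Tet1 and Tet3 proteins hold a CXXC domain that binds CpG-containing DNA, while Tet2 lacks one and can be paired with the separate CXXC protein encoded by Cxxc4. Tet2 is a known regulator of blood stem cells that is often mutated in myeloid cancers, Tet1 is best known from embryonic stem cells, and Tet3 from the zygote and the nervous system.

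The promoters of the 3 genes are shown because CpG is the dinucleotide that Tet proteins act on, and because the windows differ in it. Each runs from 250 bases before to 50 bases after a transcript start and comes from RefSeq on GRCm38.p6, written 5′ to 3′ on the gene's strand, with every CpG in capitals. The start used lies 145 bases inside the outer 5′ end of the annotated Tet1 gene, 746 bases inside that of Tet2 and 15530 bases inside that of Tet3, so other transcripts of these genes can start elsewhere.
Tet1, chr10:62887275-62887574, minus strand: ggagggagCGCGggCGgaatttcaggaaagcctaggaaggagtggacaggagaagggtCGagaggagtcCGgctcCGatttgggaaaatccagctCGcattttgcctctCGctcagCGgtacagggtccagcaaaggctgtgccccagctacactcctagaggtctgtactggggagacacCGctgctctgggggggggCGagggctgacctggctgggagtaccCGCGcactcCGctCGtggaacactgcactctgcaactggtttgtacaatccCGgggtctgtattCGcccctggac
Tet2, chr3:133544341-133544640, minus strand: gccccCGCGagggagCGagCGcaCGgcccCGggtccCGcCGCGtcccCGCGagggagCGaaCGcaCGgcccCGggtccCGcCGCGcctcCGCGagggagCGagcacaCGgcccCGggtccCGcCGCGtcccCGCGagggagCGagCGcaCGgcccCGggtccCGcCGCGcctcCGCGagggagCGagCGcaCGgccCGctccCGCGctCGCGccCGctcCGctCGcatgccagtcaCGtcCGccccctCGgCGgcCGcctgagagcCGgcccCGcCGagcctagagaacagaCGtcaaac
Tet3, chr6:83441629-83441928, minus strand: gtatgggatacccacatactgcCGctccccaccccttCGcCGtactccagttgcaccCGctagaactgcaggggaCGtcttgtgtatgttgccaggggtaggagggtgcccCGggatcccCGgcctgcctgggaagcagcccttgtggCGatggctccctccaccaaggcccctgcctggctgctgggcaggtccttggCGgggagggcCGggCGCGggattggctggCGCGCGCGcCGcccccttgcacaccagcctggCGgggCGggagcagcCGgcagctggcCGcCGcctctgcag
The Tet2 window held 57 CpG and 81.3% G or C, more CpG than 99.8% of the 32851 promoter windows of the same length, whose median was 7 CpG and 52.7% G or C. It carries an internal repeat: the longest exact one is a stretch of 43 bases at base 62 and again at base 146. Near copies of this stretch, with a few changed letters, lie before the first copy and between them. The Tet3 window held 22 CpG and 71.3% G or C, more CpG than 76.9% of windows. The Tet1 window held 17 CpG and 61.7% G or C, more CpG than 68.6% of windows. On either strand, the GC box GGGCGG was found once in the Tet1 window, once in the Tet2 window and at 2 positions in the Tet3 window, and in 35.7% of all windows. The CCAAT box CCAAT was found once, in the Tet3 window, and in 37.4% of all windows. The TATA box TATAAA, in 13.6% of windows, and the E box CACGTG, in 7.2%, were not in these 3 windows. The arrays hold no methylation values, so these letters are a description of the genes and not a result of the study.

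The values are the log2 intensities of the deposited table. All arrays had nearly the same median, with a range of 0.0694. As a guide to background, the brightest of 27 bacterial control probe sets read 4.39 on average, and 4.87 on Tet1 KO replicate 2, against at most 4.37 on any other array. The LSK markers Kit and Cd34 read at least 9.68 and at least 10.57 on every array, while Ly6a, which encodes Sca-1, was not analysed here. Other LSK markers were less even. Flt3 ran from 9.48 to 11.55 within Tet1 KO, and Slamf1 read 7.97 on Tet1 KO replicate 2 and at most 6.01 elsewhere. Differences of the 8 measured LSK markers, each at its brightest probe set, ran from -0.50 for Hlf to 0.78 for Slamf1. Other probe sets of these genes could differ: the 3 of Slamf1 ran from -0.76 to 0.78. The 3 of Meis1 ran from -0.52 to 1.10, with 0.08 at the brightest. Of 10 measured markers of mature cells, 4 were under the array's brightest bacterial control on all 6 arrays, Cd3e and Ms4a1 among them. Cd4, Cd8a, Cd79a, Gp9 and Pf4 read above it on every array. All Cd8a values in Tet1 KO were above those in WT, as for 10.3% of all genes. The Cd8a difference was 0.53, with an unadjusted limma p of 0.0375, while its 5 probe sets ran from 0.08 to 0.53. The linear intensities of the 10 mature markers summed to between 591 and 721 on the Tet1 KO arrays and between 428 and 638 on the WT arrays. Pf4, with a mean of 7.94 over all arrays, was the brightest of them. The part of mature cells in the results below was not tested. Xist, the RNA of the inactive X chromosome, read 3.82 on Tet1 KO replicate 3 and 4.58 on WT replicate 3, and at least 11.78 on the other 4 arrays, while the Y-linked gene Kdm5d was high on those 2 arrays, so each group held 1 array of that kind.

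Tet1, the gene deleted in the mutant mice, was lower in the Tet1 KO arrays at each of its 4 probe sets, at 31.2% to 52.6% of the WT intensity. Probe set 1455425_at, the brightest, read 6.26, 5.63 and 5.51 on the 3 Tet1 KO arrays, against 6.89, 6.80 and 6.75 on the 3 WT arrays. The WT arrays lay close together, and every Tet1 KO array was below them, replicate 1 by the least. The means were 5.80 ± 0.40 in Tet1 KO and 6.81 ± 0.07 in WT (log2, SD, n = 3 each), and the difference was -1.01 (SE 0.22).

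Probe set 1419896_at showed the largest difference of the 4. It read 5.27, 4.95 and 4.04 on the Tet1 KO arrays, against 6.71, 6.26 and 6.33 on the WT arrays. The groups did not overlap, and the lowest value, on Tet1 KO replicate 3, was under that array's brightest bacterial control. Its difference was -1.68 with a standard error of 0.33, which put the intensity at 31.2% of WT, with a 95% interval of 18.0% to 54.1%. By size of difference it was number 38 from the bottom of the 45037 probe sets tested.

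Probe set 1419897_at, annotated to the same expressed sequence as 1419896_at, read 5.45, 5.25 and 4.99 on the Tet1 KO arrays, against 6.30, 5.91 and 6.27 on the WT arrays. The groups again did not overlap, and the difference was -0.93 with a standard error of 0.19. Probe set 1429448_s_at, of a kind whose probes can match more than 1 transcript, read 5.30, 5.29 and 6.19 on the Tet1 KO arrays, against 6.93, 6.33 and 6.68 on the WT arrays. Here Tet1 KO replicate 3 was the highest of its group and lay just below WT replicate 2, whereas at the other 3 probe sets it was the lowest. The difference was -1.06 with a standard error of 0.30.

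**Figure D1:**
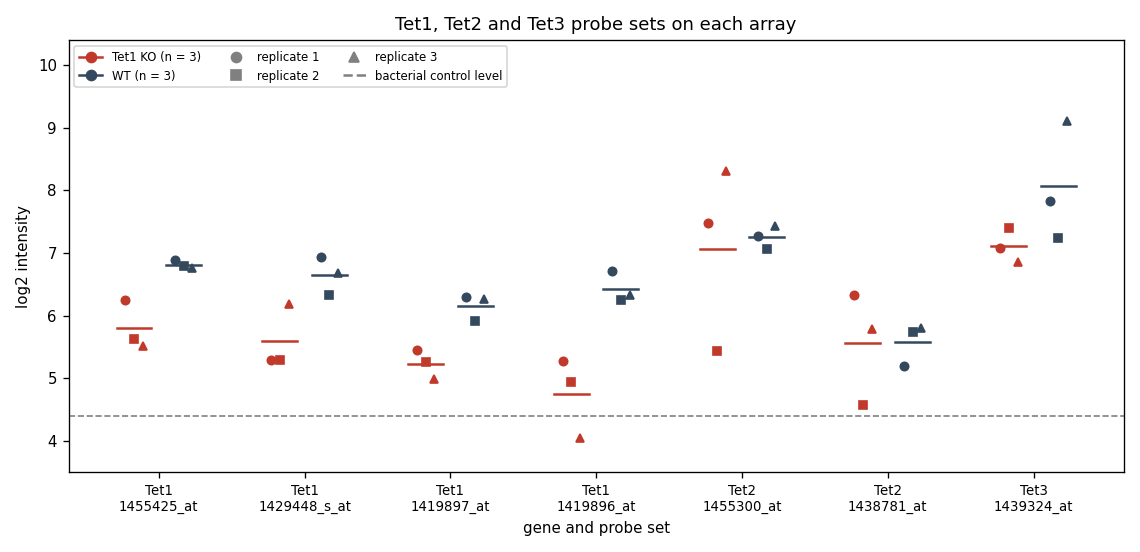
Log2 intensity (vertical axis) of each Tet1, Tet2 and Tet3 probe set on each array, Tet1 KO in red and WT in dark blue, with marker shapes for the replicate number, a bar at each group mean and a dashed line at the bacterial control level of 4.39. At the 4 Tet1 probe sets every Tet1 KO point lies below every WT point, while the Tet1 KO points of Tet2 lie on both sides of the WT points and 1 WT array stands high for Tet3.

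The 4 Tet1 probe sets had unadjusted limma p-values of 0.00310 (1455425_at), 0.0103 (1429448_s_at), 0.00225 (1419897_at) and 0.00171 (1419896_at), but the Benjamini-Hochberg adjusted p over all 45037 probe sets was 0.686 for each. Of all probe sets, 3.58% were lower in Tet1 KO at an unadjusted p under 0.05 and 6.29% had every Tet1 KO array below every WT array, and all 4 Tet1 probe sets met both conditions. The 4 share their target gene and their RNA, so they are not independent measurements of it. Across the array 0% of probe sets passed the adjusted threshold of 0.05, with a lowest adjusted limma p of 0.0634, and 3065 had an unadjusted p under 0.05. An exact two-sided permutation test of each Tet1 probe set gave p = 0.1, the smallest that 3 arrays against 3 can give. The signal that remained in Tet1 KO was above the bacterial control on every array at 3 of the 4 probe sets. The sources used here do not place the deletion relative to these probe sets, and the remaining signal is no measure of working Tet1 enzyme.

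Tet2 showed no shift that stood out from the spread of the Tet1 KO arrays. Its brighter probe set, 1455300_at, read 7.47, 5.43 and 8.31 on the Tet1 KO arrays, against 7.28, 7.07 and 7.44 on the WT arrays. The WT arrays lay together, while Tet1 KO replicate 2 was far below them and Tet1 KO replicate 3 above them. The means were 7.07 ± 1.48 in Tet1 KO and 7.26 ± 0.18 in WT (log2, SD, n = 3 each). The spread among the Tet1 KO arrays was larger than that of 98.6% of all probe sets in this group.

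The dimmer Tet2 probe set, 1438781_at, read 6.34, 4.57 and 5.79 on the Tet1 KO arrays, against 5.20, 5.74 and 5.80 on the WT arrays. Tet1 KO replicate 2 was again the lowest array, below its own bacterial control of 4.87, but here Tet1 KO replicate 1 and not replicate 3 was the highest. Its means were 5.57 ± 0.91 in Tet1 KO and 5.58 ± 0.33 in WT (log2, SD, n = 3 each). The differences were -0.19 (95% interval -1.82 to 1.44) for 1455300_at and -0.01 (95% interval -1.09 to 1.06) for 1438781_at, with unadjusted limma p-values of 0.787 and 0.975 and adjusted p-values of 0.927 and 0.992. These intervals run well to either side of 0, so they do not show that Tet2 was alike in both groups. Without Tet1 KO replicate 2, the array with the brightest bacterial control, the differences were 0.63 and 0.48, with unadjusted limma p-values of 0.0660 and 0.118. The part of that array's quality in the Tet2 values was not tested.

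Tet3 was measured by a single probe set, 1439324_at, and its difference depended on 1 WT array. It read 7.08, 7.40 and 6.86 on the Tet1 KO arrays, against 7.84, 7.24 and 9.11 on the WT arrays. The Tet1 KO arrays lay together, WT replicate 3 stood above all others, and the groups overlapped, since Tet1 KO replicate 2 was above WT replicate 2. The means were 7.11 ± 0.27 in Tet1 KO and 8.06 ± 0.96 in WT (log2, SD, n = 3 each), and the WT spread was larger than that of 98.8% of probe sets in WT. The difference was -0.95 (95% interval -2.06 to 0.16), with an unadjusted limma p of 0.0817, an adjusted p of 0.686 and an exact two-sided permutation p of 0.2. Without WT replicate 3 the difference was -0.43 with an unadjusted limma p of 0.177, and without WT replicate 2 it was -1.36 with an unadjusted p of 0.0185. WT replicate 3 was also the WT array with low Xist, and leaving out the low-Xist array of each group gave -0.30.

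**Figure D2:**
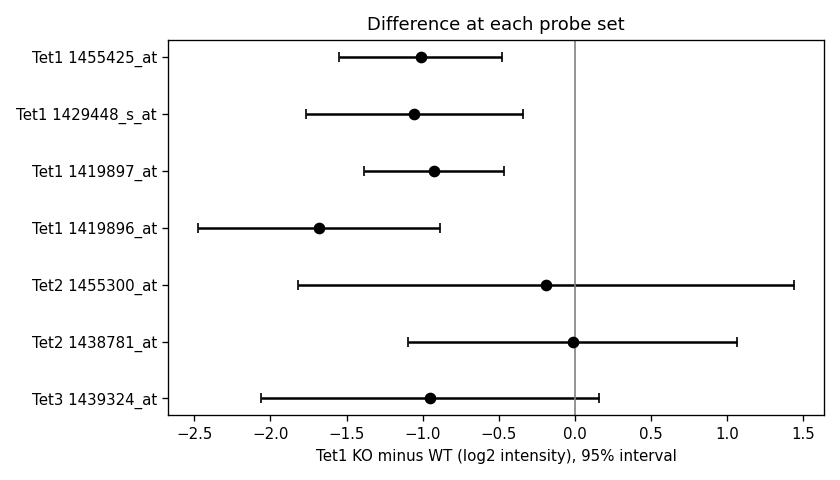
Difference of Tet1 KO minus WT in log2 intensity (horizontal axis) at each probe set (rows), with bars for the 95% interval of the limma fit over 3 arrays per group. The intervals of the 4 Tet1 probe sets lie below 0, with centres between -1.68 at 1419896_at and -0.93 at 1419897_at, while those of Tet2 and Tet3 include 0.

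All 7 probe sets had a difference below 0, where 42.9% of all probe sets did. However, all 7 were above the median level, and 60.4% of all genes above that level were lower. The Tet2 values were near 0 and changed sign with the arrays used. The direction of the Tet1 probe sets was the same whichever array was left out. With 1 array left out the Tet1 differences lay between -1.24 and -0.87 (1455425_at), between -1.35 and -0.90 (1429448_s_at), between -1.05 and -0.80 (1419897_at) and between -1.94 and -1.33 (1419896_at). The Tet2 probe sets ran from -0.81 to 0.63 (1455300_at) and from -0.40 to 0.48 (1438781_at), and the Tet3 probe set from -1.36 to -0.43.

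**Figure D3:**
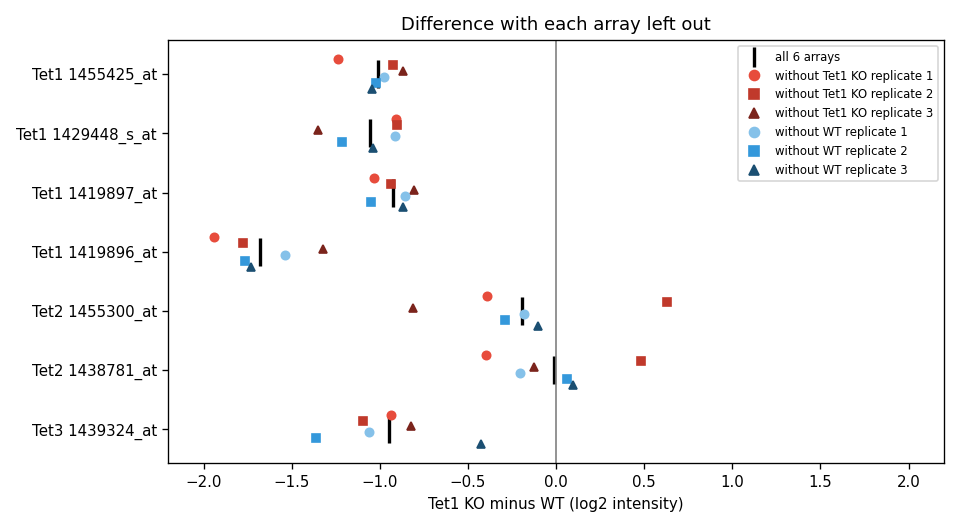
Difference of Tet1 KO minus WT in log2 intensity (horizontal axis) at each probe set (rows), with a black tick for all 6 arrays and a coloured marker for each fit that left out 1 array. The Tet1 markers stay at or below -0.80, the Tet2 markers farthest above 0, at 0.63 and 0.48, are without Tet1 KO replicate 2, and the Tet3 marker nearest 0, at -0.43, is without WT replicate 3.

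For each member, the 3 genes with the most similar profile over the 6 arrays were found by the root mean square distance between profiles centred on their own means, among 11373 genes with a mean of at least 5. This is a description over arrays of both groups, with no test. For Tet1 at 1455425_at these were 1700048O20Rik, at a distance of 0.07, Dlg3, which encodes a membrane-associated scaffold protein, at 0.09, and Slc16a13, a member of the monocarboxylate transporter family, at 0.10, while the median gene was at 0.60. Dlg3 read 7.09, 6.27 and 6.34 on the Tet1 KO arrays, against 7.56, 7.42 and 7.37 on the WT arrays. As with Tet1, replicate 1 was the highest of the Tet1 KO arrays and the WT arrays lay together, which the choice of nearest genes fixes.

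For Tet2 at 1455300_at the nearest genes were Rmdn1, a regulator of microtubule dynamics, at 0.12, Fhl1, a LIM domain protein, at 0.14, and Csgalnact1, an enzyme of chondroitin sulfate synthesis, at 0.17, where the median gene was at 0.89. Fhl1 read 6.87, 5.13 and 7.94 on the Tet1 KO arrays, against 6.80, 6.45 and 7.18 on the WT arrays. Its lowest value was on Tet1 KO replicate 2 and its highest on Tet1 KO replicate 3, a likeness that the choice of nearest genes fixes. For Tet3 the nearest were Fam114a1, at 0.21, Rnh1, the ribonuclease inhibitor, at 0.28, and Galc, the lysosomal galactosylceramidase, at 0.28, with a median gene at 0.79. Galc read 6.66, 6.60 and 6.07 on the Tet1 KO arrays, against 7.31, 6.38 and 9.07 on the WT arrays, with its highest value on WT replicate 3, again by choice of the nearest genes.

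**Figure D4:**
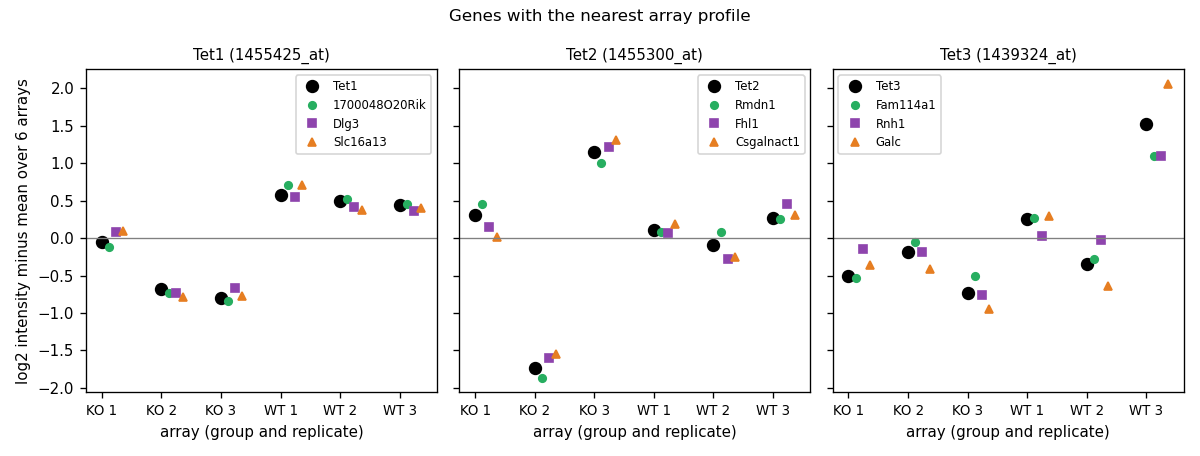
Log2 intensity minus the mean over the 6 arrays (vertical axis) on each array (horizontal axis), for the brightest probe set of each Tet gene in black and its 3 nearest genes in colour. The Tet1 panel separates the groups, the Tet2 panel is set by Tet1 KO replicates 2 and 3, and the Tet3 panel by WT replicate 3. The nearest genes share these patterns because they were chosen for it.

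Of 60 other genes that act around the Tet proteins, 56 had a probe set with that gene as its only symbol, each read at its brightest one. Thymine DNA glycosylase, which removes the most oxidised forms of the base, was not among them, since its probe sets are annotated to several genes. In Tet1 KO 39 of the 56 were lower and 17 higher, with a median difference of -0.13, where the median of all 18193 genes was 0.05 and 43.5% were lower. Direction went with level: among probe sets above the median level 60.4% of all genes were lower, with a median of -0.09, and 38 of the 51 list genes in that range. With cyclic loess normalization the count of 39 became 30 of 56 (53.6%), with a median of -0.01, against 45.7% and 0.03 for all genes. Without Tet1 KO replicate 2 it was 29 of 56 (51.8%), against 47.0% of all genes. At an unadjusted limma p under 0.05 there were 2 lower genes, or 3.57%, and 1 higher gene, or 1.79%, against 3.7% and 3.02% of all genes, and 0 passed the adjusted test, as did 0% of all genes.

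Among writers of methylation, 3 of 5 genes were lower and 2 higher, and none had an unadjusted limma p under 0.05. Dnmt3b, a de novo DNA methyltransferase, had the smallest p of the 5, 0.357, with a difference of -0.21 (SE 0.21). Dnmt1, which copies methylation after replication, differed by 0.05, and its recruiting partner Uhrf1 by 0.10, with -0.02 at the other Uhrf1 probe set. In this list no gene separated the groups.

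Of 13 partners and regulators of Tet proteins, 7 were lower and 6 higher, and 4 averaged less than the bacterial control in Tet1 KO and in WT. Dppa3, known in mouse zygotes to protect maternal DNA from Tet3-driven oxidation, read 5.94, 6.01 and 5.53 on the Tet1 KO arrays, against 5.36, 5.12 and 5.47 on the WT arrays. All 3 Tet1 KO arrays were above the WT arrays, replicate 3 by little, as for 10.3% of all genes. The difference was 0.51 (SE 0.19), with an unadjusted limma p of 0.0344 and an adjusted p of 0.686. Cxxc4, the separate CXXC partner of Tet2, read 4.12, 4.24 and 4.18 in Tet1 KO, against 3.96, 3.66 and 3.94 in WT, with all values below the array's brightest bacterial control. Ogt, a sugar transferase that binds Tet proteins, differed by -0.05 at its brightest probe set, while its 5 probe sets ran from -0.50 to -0.05. Ddb1 and Dcaf1, of the ubiquitin ligase that modifies Tet proteins, had all Tet1 KO values below all WT values. In this direction 6.88% of all genes did so. Their differences were -0.34 and -0.14, with unadjusted limma p-values of 0.0744 and 0.332. The other Dcaf1 probe set gave 0.09.

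Of 14 genes for the supply of 2-oxoglutarate, its competing metabolites and ascorbate, 11 were lower and 3 higher. Among all genes above the median level, 60.4% were lower. Ogdh, a subunit of the complex that consumes 2-oxoglutarate, read 7.57, 8.01 and 7.71 on the Tet1 KO arrays, against 8.05, 8.37 and 8.15 on the WT arrays. The groups did not overlap, as for 6.88% of all genes in this direction, and the difference was -0.42 (SE 0.18) with an unadjusted limma p of 0.0542. Idh1 and Idh2, which make 2-oxoglutarate and are mutated in leukaemias, differed by -0.14 and -0.17, with unadjusted limma p-values of 0.655 and 0.337. The other Idh1 probe set gave 0.12.

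Of 12 measured genes for base removal and repair, 9 were lower and 3 higher, where 60.4% of all genes above the median level were lower. Smug1, a glycosylase that removes uracil and 5-hydroxymethyluracil, read 7.16, 6.02 and 6.32 on the Tet1 KO arrays, against 7.35, 7.52 and 7.11 on the WT arrays. Tet1 KO replicate 1 lay among the WT arrays and the other Tet1 KO arrays below them. The difference was -0.82 (SE 0.31), with an unadjusted limma p of 0.0334 and an adjusted p of 0.686.

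Of 7 readers of methylated or oxidised cytosine, 6 were lower and 1 higher. Thyn1, whose protein was found among those that bind 5-hydroxymethylcytosine, read 8.41, 7.99 and 7.92 on the Tet1 KO arrays, against 8.58, 8.90 and 8.56 on the WT arrays. The groups did not overlap, as for 6.88% of all genes in this direction. The difference was -0.57 (SE 0.20), with an unadjusted limma p of 0.0241 and an adjusted p of 0.686. Another of the 3 Thyn1 probe sets gave 0.22 and their mean -0.13. Of the 5 other 2-oxoglutarate dioxygenases of nucleic acids, 3 were lower and 2 higher. Alkbh3, which repairs alkylated bases, had the smallest p of these, 0.316 in limma, with a difference of -0.32 (SE 0.30). Its other probe set gave 0.02.

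**Figure D5:**
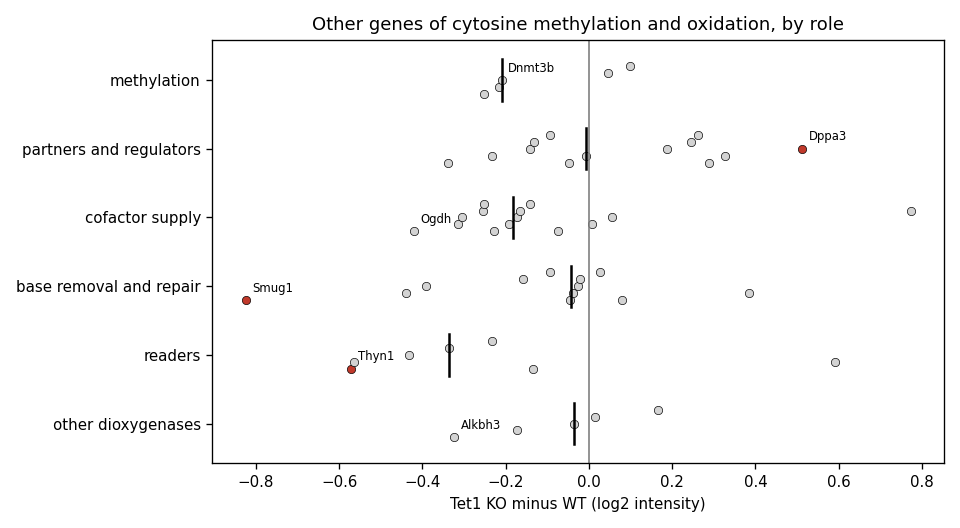
Difference of Tet1 KO minus WT in log2 intensity (horizontal axis) for the 56 measured genes that act around the Tet proteins, 1 point per gene at its brightest probe set, in rows by role, with a black bar at each row's median. Red points are the 3 genes with an unadjusted limma p under 0.05, Smug1 and Thyn1 below 0 and Dppa3 above, and 0 passed the adjusted test.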

How the data were processed

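Total RNA from LSK cells of 3 Tet1 KO and 3 WT samples was hybridised on Affymetrix arrays, 1 per sample, and 125 ng went into each cDNA synthesis, per the labels. The deposited table holds log2 intensities per probe set. The values run from 1.50 to 14.6, from which the log2 scale was inferred, and the authors' background correction, normalization and summarization are not given in the sources used here. Array medians differed by 0.0694, under the limit of 0.3 for renormalizing, so values were used as deposited. The number of arrays, 3 per group, limits the precision.

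Of 45101 probe sets, 64 controls were left out. Of the other 45037, 34945 had 1 gene symbol, 932 several and 9160 none in the platform annotation, and 34741 matched RefSeq (GRCm38.p6) by gene identifier. Tet1 KO minus WT was fitted on all 45037 in limma 3.58.1 (R 4.3.3, lmFit and eBayes, two-sided), with Benjamini-Hochberg adjustment at 0.05. For other genes the brightest probe set of 18193 genes was read from that fit. The fit was tested on simulated data.

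Named genes were all members, list genes with an unadjusted p under 0.05 or the smallest p of their role, and the 3 nearest profiles per member. Dnmt1, Uhrf1, Cxxc4, Ogt, Ddb1, Dcaf1, Idh1 and Idh2 fall outside this rule and were added for their role or lack of overlap after their values were seen. Members and lists were chosen with earlier results of these data known. Alternatives were other normalizations, filters, variance models, array weights, gene-level fits, a replicate block and leaving out arrays. Deviations of same-numbered arrays had almost no correlation across probe sets (0.0127, -0.00632 and 0.000539). Xist and Kdm5d did follow the numbers, with replicate 3 apart in both groups. Whether the numbers pair the samples therefore cannot be told from these values.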

Additional observations from a re-analysis of the deposited data

How the results depend on the processing

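The 4 Tet1 probe sets and the Tet3 probe set kept their direction under every alternative run, and in 118 alternative values of the 7 probe sets 0 had an adjusted limma p under 0.05. The Tet2 probe sets did not keep theirs: 1455300_at gave 0.32 and 1438781_at 0.34 with array weights, and 0.63 and 0.48 without Tet1 KO replicate 2. The second also gave 0.06 without WT replicate 2 and 0.10 without WT replicate 3. With 1 array left out they ran from -0.81 to 0.63 and from -0.40 to 0.48. The cause was not tested. The count of probe sets with an adjusted p under 0.05 was 1 with an intensity trend, robust or not, in place of 0, and that probe set is no member. At an unadjusted limma p under 0.05 in the pathway list, the count of 2 lower genes became 1 with cyclic loess, 5 with array weights, 1 with probe sets averaged per gene and 0 without the low-Xist array of each group, an alternative chosen after seeing the data, and ran from 0 to 3 with 1 array left out. The count of 1 higher gene became 0 with an intensity trend, robust or not, 0 with the replicate block and 4 with the averaged probe sets, and ran from 0 to 2 with 1 array left out. The replicate block changed no adjusted call: the differences are unchanged by it, and the unadjusted limma p-value of Tet3 was 0.103. It moved the count at an unadjusted limma p under 0.05 among all 45037 probe sets to 2396, against 3065. That count was 2544 with cyclic loess, 3390 with array weights, 3274 with an intensity trend and 2308 without the low-Xist arrays. With 1 array left out the same count ran from 1558 to 4627. Fits of 18193 genes gave 1446 with averaged probe sets and 1311 at the brightest probe set. These totals join both directions. Shares of all genes by direction were not computed under these settings, so whether the list counts moved more than all genes cannot be told. The 3 arrays per group limit what can be told apart, since the 95% interval of the brighter Tet2 probe set spans -1.82 to 1.44.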
